A study of Mus musculus with 18 samples.

Results

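The proteasome genes of mouse mammary carcinoma cells were followed across 4 short treatments. The members were all genes whose symbol starts with Psm, a letter from a to g and a number, in the probe annotation of the array. Of 49 such symbols, 48 were measured among 22180 genes, each by 1 probe set, chosen for the highest mean where a gene had several. Of these 48, 46 were listed as genes of the proteasome, its assembly factors and its regulators. The other 2, Psmc3ip and Psme3ip1, fit the symbol pattern and stood outside that list. Psma4, a core subunit, was represented only by probe sets shared with other symbols and was not measured. One further symbol that fits the pattern was left out by the selection rule and is not analysed here.

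The proteasome degrades proteins that carry a ubiquitin chain. Its barrel-shaped core particle is built from rings of alpha subunits (Psma genes), which gate the entrance, and rings of beta subunits (Psmb genes), some of which carry the protease sites. A regulatory particle caps the barrel: its base holds a ring of ATPases (Psmc genes) that unfold the substrate, and its lid (a subset of the Psmd genes) removes the ubiquitin chain. Other activators (Psme genes) can take the place of that cap, and dedicated chaperones (Psmg genes, Psmd5, Psmd9 and Psmd10) assist assembly.

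Expression was measured on 18 Affymetrix arrays of the mouse mammary carcinoma line NaF, with 3 arrays in each of 6 groups. For 12 arrays the cells were kept in DMEM with 10% charcoal-treated fetal bovine serum, which is depleted of lipophilic ligands, from 48 h before treatment. This set held 3 controls and 3 arrays each of cells given all-trans retinoic acid, the natural agonist of the retinoic acid receptors, TTNPB, a synthetic agonist of the same receptors, or GW1516, an agonist of the nuclear receptor PPARδ, at 1 µM for 6 h. The other 6 arrays came from cells in DMEM with 10% untreated serum, 3 as controls and 3 with palmitate, a saturated fatty acid, at 10 µM for 6 h. The question put to the data was how RAR and PPARδ ligands change expression across the genome. No vehicle is named for the controls, and nothing says that the 3 arrays of a group came from separate cultures, so the spread behind each p-value may be technical. All values are on the log2 scale as deposited. The arrays in the charcoal-treated and untreated sera had different overall medians (1.06 to 1.32 and 0.473 to 0.548) and may have been scaled apart, so each treatment was compared only with the control in its own serum.

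The label of the cells was checked against marker genes. Of 11 mammary epithelial markers, 8 or 9 lay above background in every group, Krt18, Cdh1, Cldn3 and Erbb2 among them. Background was taken as the 95th percentile of 1390 olfactory and vomeronasal receptor genes and lay between 0.593 and 1.31. In the charcoal-serum controls, where it was 1.31, Krt8 (1.68), Cldn4 (1.67) and Epcam (1.51) lay just above it. Krt19, Krt7 and Elf5 lay below it there. In the full-medium controls Epcam (0.49) lay below the background of 0.593. The immune markers Ptprc and Cd68 lay just above it in charcoal-treated serum, and Pecam1 and Kdr, 2 of the 3 endothelial markers, lay below it. Among 5 fibroblast markers Pdgfra was clearly above background, at 4.88 ± 0.30 (SD, n = 3) in the charcoal-serum controls and 5.65 ± 0.36 with retinoic acid, without passing the test (change 0.78, adjusted p 0.168, limma), Pdgfrb was near background, and Col1a1 and Dcn lay below it in the 4 charcoal-serum groups. The basal marker Trp63 was just above background there, at 1.53. Of the epithelial markers Cldn3 rose with retinoic acid by 0.76 (adjusted p 1.08e-05), with TTNPB by 0.62 (0.000243) and with palmitate by 0.41 (0.0123), and Erbb2 fell with retinoic acid by 0.43 (0.0152). The remaining endothelial marker, Cdh5, was high, and the summed level of the 3 ranged from 10.7 to 11.6 in the charcoal-serum controls, was 10.5 with retinoic acid and 10.3 with TTNPB, and ranged from 9.75 to 10.7 with GW1516. Whether these markers have a part in the differences below was not tested. In such whole-culture samples fewer cells of a type and less RNA per cell cannot be told apart. One array stood apart: GW1516 replicate 3 lay at a mean distance of 0.231 from its group, against 0.0816 to 0.145 for the other 17, and because all arrays share one estimate of spread, results are given with and without it where they differ.

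Most members were well expressed. In each group 44 or 45 of the 48 lay above background. The exceptions were subunits that replace standard ones in particular tissues or states: Psma8, a testis subunit, Psmb11, a thymus subunit, and Psmb8, the interferon-inducible catalytic subunit of the immunoproteasome, lay below background in all 6 groups. Psmb8 ranged from 1.05 to 1.26 in the charcoal-serum controls. Psmb10, another inducible catalytic subunit, was measured clearly above background, at 4.40 ± 0.01 (SD, n = 3) in the same controls. Psma5, a standard core subunit, was above background in only 3 of 6 groups, with values near background throughout. It is kept in the counts of the 13 core subunits below.

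Retinoic acid lowered Psma2, Psmb2 and Psmc4 and raised Psme4, while most other members lay slightly below the control. Of the 48 members, 3 fell (6.25%) and 1 rose (2.08%) at an adjusted p below 0.05 in limma's moderated test with Benjamini-Hochberg adjustment over all genes. Of all 22180 genes, 5.29% passed, 1.47% as falls and 3.82% as rises. The median member change was -0.11, against -0.03 for all genes, and 39 of 48 members lay below 0 (81.2%, against 57.6% of all genes). At an unadjusted p below 0.05, 10 members fell (20.8%, against 7.03% of all genes) and 3 rose (6.25%, against 9.39%). All 3 arrays lay below all 3 controls for 15 members and above them for 5, where 11.2% and 12.9% of all genes did so. With dim genes left out (mean below 0.921), 12.1% of 12346 genes passed and 4 of 45 members. Of those genes 47.2% lay below 0, as did 37 of those members. At an unadjusted p below 0.05, 8.55% of those genes fell, as did 9 of those members.

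Among the core subunits, 12 of 13 lay below the control, with a median of -0.12. Psma2, an alpha ring subunit (chr13:14613242-14625673, GRCm38.p6, as for all positions here), measured 6.13, 5.84 and 6.29 in the controls and 5.38, 5.64 and 5.46 with retinoic acid. Every treated array was below every control array. The change of -0.59 ± 0.14 (SE) is a level 1.5-fold lower, with an adjusted p of 0.0171 from limma. Psmb2, a beta subunit without a protease site of its own (chr4:126677637-126709715), measured 7.04, 6.81 and 7.14 in the controls and 6.53, 6.57 and 6.61 with the ligand. These groups did not overlap either, and the fall was 1.34-fold, with a change of -0.43 ± 0.10 (SE) and an adjusted p of 0.0187 from limma. Psmb5, which carries the chymotrypsin-like site, had a change of -0.12 that did not pass (adjusted p 0.727, limma). Psma6, the only core subunit above 0, had a change of 0.12 (adjusted p 0.565).

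Of the 6 ATPases, 5 lay below the control and Psmc4 passed the test. Psmc4 (chr7:28041702-28050092) measured 8.41, 8.27 and 8.45 in the controls and 8.01, 8.03 and 7.96 with retinoic acid, again without overlap. Its fall was 1.30-fold (change -0.38 ± 0.09 SE, adjusted p 0.0225, limma). Psmc6, the ATPase with the largest positive change, went the other way by 0.43 without passing (adjusted p 0.2). It measured 8.03, 8.21 and 8.12, against 7.67, 7.64 and 7.75 in the controls, and passed with only the arrays of the same serum (adjusted p 0.0218) or of the comparison (0.0023). Psmc1 had a change of -0.14 (adjusted p 0.625).

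All 8 lid subunits lay below the control, with a median of -0.17, and none passed the test in limma. Of these, 3 fell at an unadjusted p below 0.05 (37.5%, against 7.03% of all genes). The largest difference was that of Psmd6 at -0.42 (adjusted p 0.497) and the smallest that of Psmd11 at -0.01. Psmd7, a structural partner of the lid's deubiquitinase, had a change of -0.42 (adjusted p 0.11). That deubiquitinase itself, Psmd14, was close to the control, at -0.03 (adjusted p 0.94).

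Psme4, which encodes the activator PA200 (chr11:30771775-30881150), was the member that rose. It measured 6.29, 6.28 and 6.54 in the controls and 6.81, 6.96 and 6.86 with retinoic acid. The groups did not overlap, and the rise was 1.42-fold (change 0.51 ± 0.12 SE, adjusted p 0.0195, limma). The other 3 activators did not pass: Psme3, the nuclear activator, lay at -0.24, Psme1 at 0.08 and Psme2 at 0.15.

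The number of members that passed depended on single arrays. Without GW1516 replicate 3, an omission chosen after the data were seen, 8 members passed instead of 4, and the added ones, all lower, were Psma7 (-0.31, adjusted p 0.0485), Psmb4 (-0.21, 0.0293), Psmd5 (-0.56, 0.00772) and Psmd7 (-0.42, 0.0205). In that fit 9.08% of all genes passed. Without retinoic acid replicate 1, or without control replicate 1, no member passed, where 2.83% and 3.65% of all genes did. Just 1 passed without retinoic acid replicate 2, retinoic acid replicate 3 or control replicate 3, where 2.63%, 4.04% and 4.2% of all genes did. The scaling also mattered: after quantile normalization 1 member rose and 8 fell (6.13% of all genes passed), and after median centring only Psme4 passed (3.38%). Rises made up 72.2% of all calls as deposited, 52.2% after quantile normalization and 88% after centring. Members below 0 numbered 41 and 32 under these scalings.

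The upstream sequences of Psma2, Psmc4 and Psme4 are shown because the ligands act through DNA-binding receptors and because proteasome genes are known to be controlled together by factors that bind the antioxidant response element. Each run is the 250 bases before a transcript start, 5′ to 3′ on the gene's strand, from RefSeq, build GRCm38.p6. Capitals mark matches to 3 motifs searched on both strands: TGACNNNGC, the core of the antioxidant response element, CCAAT, the NF-Y box, and AGGTCA, a half-site of nuclear receptors.
Psma2, chr13:14612992-14613241, plus strand: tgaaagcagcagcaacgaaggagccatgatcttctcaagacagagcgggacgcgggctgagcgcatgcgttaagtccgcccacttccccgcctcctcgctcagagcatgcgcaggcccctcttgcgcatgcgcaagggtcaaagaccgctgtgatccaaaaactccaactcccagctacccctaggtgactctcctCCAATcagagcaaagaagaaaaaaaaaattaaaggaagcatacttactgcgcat
Psmc4, chr7:28050093-28050342, minus strand: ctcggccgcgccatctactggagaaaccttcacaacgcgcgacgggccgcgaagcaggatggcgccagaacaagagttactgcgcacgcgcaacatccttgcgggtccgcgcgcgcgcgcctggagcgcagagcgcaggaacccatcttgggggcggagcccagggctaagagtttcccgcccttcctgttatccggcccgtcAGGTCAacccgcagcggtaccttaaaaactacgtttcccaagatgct
Psme4, chr11:30771525-30771774, plus strand: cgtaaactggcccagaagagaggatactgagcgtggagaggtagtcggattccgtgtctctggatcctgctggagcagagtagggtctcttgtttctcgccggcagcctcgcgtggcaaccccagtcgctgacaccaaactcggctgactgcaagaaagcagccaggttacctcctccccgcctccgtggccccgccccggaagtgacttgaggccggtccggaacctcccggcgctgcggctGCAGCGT
Psma2 holds CCAAT 54 bases before its start and Psmc4 holds AGGTCA 47 bases before its start. Psme4 holds TGACNNNGC on the opposite strand from 7 bases before the start, and the match runs past the end of the printed bases. Among 44 windows of 300 bases (250 before and 50 after a start) for 40 measured members, 11 held AGGTCA (25.0%, against 16.3% of all 32851 windows), 15 held CCAAT (34.1%, against 37.4%) and 6 held TGACNNNGC (13.6%, against 12.4%). A match describes the letters only.

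**Figure D1:**
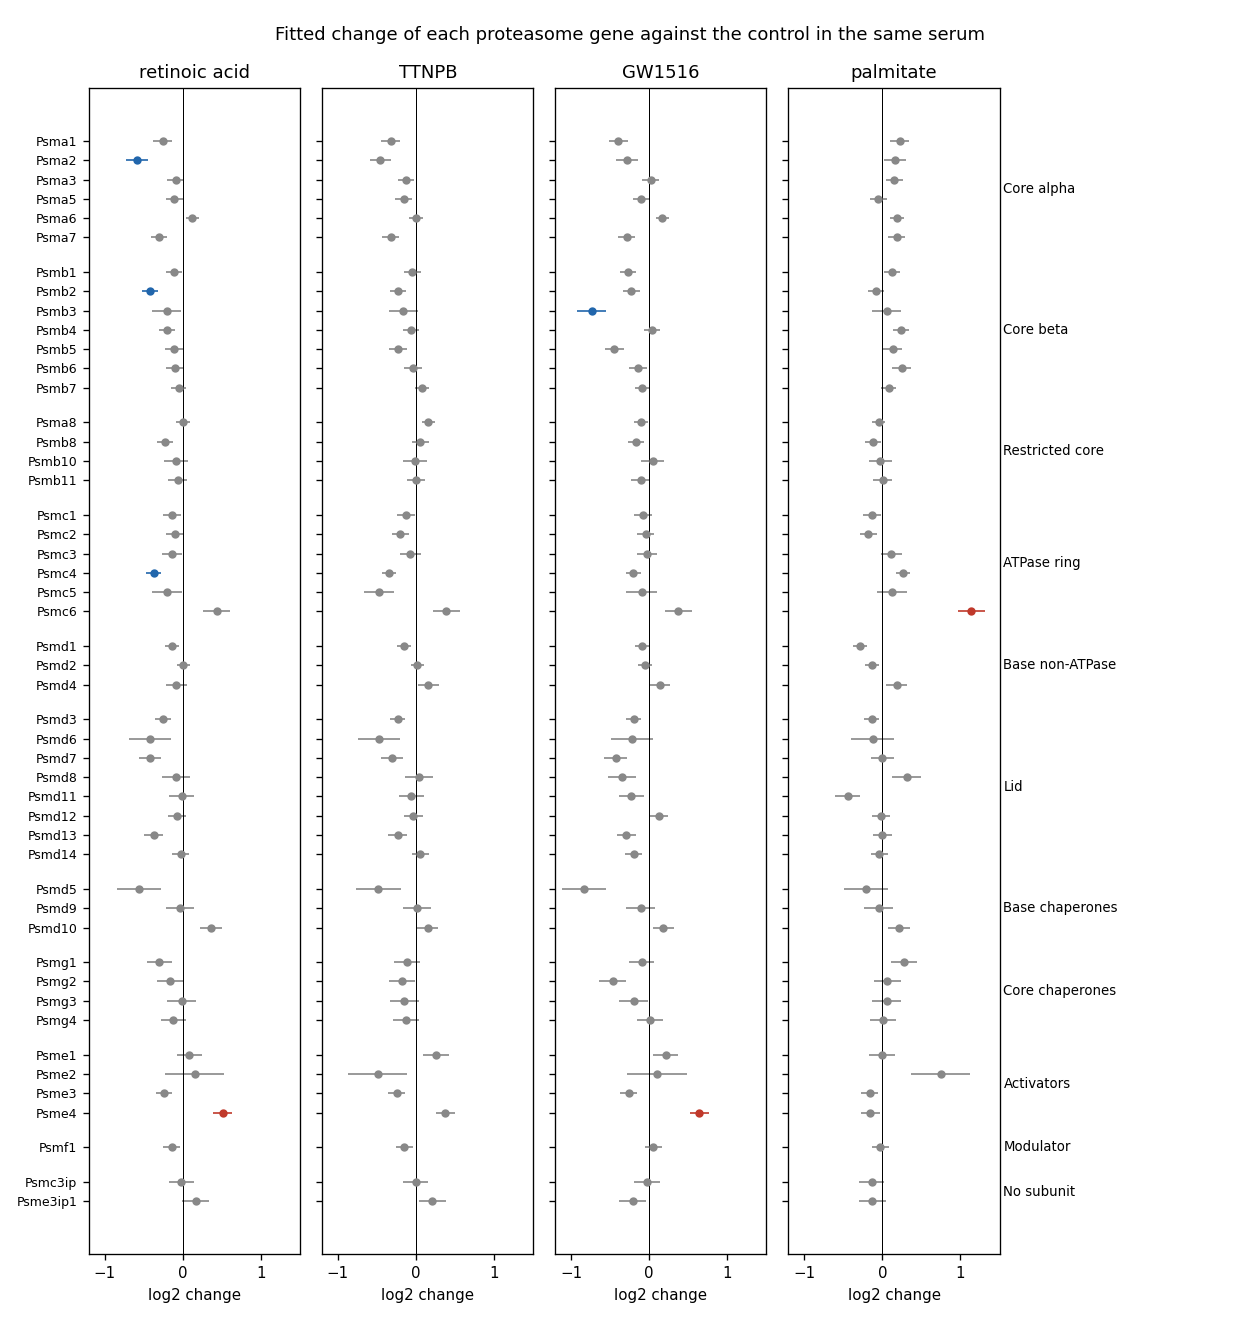
Fitted log2 change of each of the 48 members (rows, grouped by role) against the control in the same serum, in 4 panels for retinoic acid, TTNPB, GW1516 and palmitate. Points are estimates from 3 arrays against 3, bars are 1 SE, and colour marks an adjusted p below 0.05 (blue for a fall, red for a rise); most points lie left of 0 with the 3 ligands, and Psmc6 lies far to the right with palmitate.

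With TTNPB no member passed the test in limma, where 1.26% of all genes did. With dim genes left out, 1 of 45 members passed, where 3.68% of 12346 genes did. Without adjustment, 9 members fell at a p below 0.05 (18.8%, against 5.65% of all genes) and 2 rose (4.17%, against 5.57%). The median member change was -0.12, against -0.004 for all genes, and 35 of 48 members lay below 0 (72.9%, against 51.2%). All treated arrays lay below all controls for 13 members and above them for 3, where 9.11% and 8.83% of all genes did so. TTNPB, retinoic acid and GW1516 were compared with the same 3 control arrays, so likeness among these comparisons is partly built in.

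The core subunits had a median of -0.16, with 12 of 13 below the control, the ATPases a median of -0.17, and the lid a median of -0.15. Psma2 measured 5.64, 5.47 and 5.78 with TTNPB, all below the 3 controls, a change of -0.45 (adjusted p 0.147). Psmc4 measured 8.18, 7.96 and 7.97, also all below the controls, with a change of -0.34 and the lowest adjusted p of any member, 0.0832. Psmb5 was at 10.22, 10.22 and 10.33, against 10.58, 10.45 and 10.43 in the controls, a change of -0.23 (adjusted p 0.514). These 3 genes were below their controls on every array, by less than the test required.

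Members above the control with TTNPB were few. Psmc6 had a change of 0.39 (adjusted p 0.398, or 0.0222 with only the 6 arrays of the comparison) and Psme4 one of 0.37 (adjusted p 0.183), with treated arrays of 6.73, 6.71 and 6.80 for Psme4, all above the controls. Psmb7 at 0.08 and Psmd14 at 0.05 were the highest of the core and of the lid. At the other end Psmd6 had -0.47 (adjusted p 0.59), Psmc5 -0.47 (0.335) and Psmc1 -0.13 (0.797). Without GW1516 replicate 3, 3 members fell: Psmb5 (-0.23, adjusted p 0.0115), Psmc4 (-0.34, 0.0168) and Psmd5 (-0.48, 0.0419). In that fit 3.76% of all genes passed.

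The direct comparison of the 2 retinoids, at the same dose and time, found no member that differed in limma, where 34 of 22180 genes (0.153%) did. Psmb8, which lay below background, was the only member at an unadjusted p below 0.05, where 7.27% of all genes were. For Psmb2 retinoic acid gave a level lower by -0.19, with a 95% interval from -0.41 to 0.03 (adjusted p 0.743). For Psma2 the difference was -0.13, with an interval from -0.43 to 0.16. Psmc4 differed by -0.03, with an interval from -0.23 to 0.16, and Psme4 by 0.14, with an interval from -0.12 to 0.40. The intervals of 44 of 48 members, including all 13 core subunits, lay within a 1.5-fold difference either way.

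With GW1516 the beta subunit Psmb3 fell and Psme4 rose, again with most members slightly below the control. These were 1 fall and 1 rise among 48 members (2.08% each), where 2.57% of all genes passed in limma, 0.681% as falls and 1.89% as rises. With dim genes left out, 3 of 45 members passed, where 7.06% of 12346 genes did. The median member change was -0.11, against -0.01 for all genes, and 35 of 48 lay below 0, against 52.4% of all genes. The unadjusted p was below 0.05 for 12 falls (25%, against 7.34% of all genes) and 2 rises (4.17%, against 8.04%). All treated arrays lay below all controls for 11 members and above them for 3, where 8.03% and 8.25% of all genes did so. Of all calls 73.5% were rises as deposited, 54.6% after quantile normalization and 90.2% after median centring.

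Psmb3, a beta subunit without a protease site (chr11:97703434-97713500), measured 3.62, 3.67 and 3.69 in the controls and 3.26, 3.05 and 2.46 with GW1516. The groups did not overlap, and the third treated array was well below the other two. The fall was 1.66-fold (change -0.73 ± 0.18 SE, adjusted p 0.0379, limma). Without that array, GW1516 replicate 3, the change was -0.50 and no longer passed (adjusted p 0.106). Psmb5 moved the other way across the threshold. It measured 10.58, 10.45 and 10.43 in the controls and 10.28, 10.25 and 9.60 with the ligand, a change of -0.44 (adjusted p 0.0552). Without replicate 3 the change was smaller, at -0.22, and passed (adjusted p 0.0336, limma).

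Replicate 3 scattered to both sides. Of its group's 3 arrays it was the lowest for 21 of the 48 members and the highest for 22, and in the lid it was the lowest for 6 of 8. Psmd5, a chaperone of base assembly, measured 6.61, 6.63 and 5.03 with GW1516, against 7.02, 6.82 and 6.92 in the controls. The lid subunit Psmd8 measured 7.78, 7.93 and 6.82. The core subunit Psmb4 went the other way, at 8.12, 8.15 and 8.62, against 8.23, 8.18 and 8.38 in the controls. Over the 8 lid subunits the median difference from the control mean was -0.42 on replicate 3 and -0.08 and -0.11 on the other arrays, so the size of the lid's difference with GW1516 rests on that array. The core medians were -0.21, -0.24 and, on replicate 3, -0.14, where that array was the highest for 9 of the 13 core subunits and the lowest for 4, Psmb3 and Psmb5 among them.

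Psme4 measured 6.97, 6.85 and 7.21 with GW1516, all above the controls. Its rise was 1.56-fold (change 0.64 ± 0.12 SE, adjusted p 0.00903, limma) and passed without replicate 3 too (0.54, adjusted p 0.0217). It missed the threshold in 1 of 6 fits that left out an array, with adjusted p-values from 0.0106 to 0.0513. Psmc6 had a change of 0.37 (adjusted p 0.316), with arrays of 8.13, 8.16 and 7.88 against controls of 7.67, 7.64 and 7.75. Psmc4, lowest of the ATPases, lay at -0.20 (adjusted p 0.31) and Psmd7, lowest of the lid, at -0.43 (0.127). Psma6 at 0.17 and Psmd12 at 0.13 were the highest of the core and of the lid, Psmc1 lay at -0.08 and Psmd14 at -0.20, and none of them passed. The count for GW1516 also depended on the arrays fitted. No member passed without control replicate 2, where 0.893% of all genes did, or in a fit of the 6 arrays alone, where 3 of all genes did. Psme4 alone passed without control replicate 1 or 3, among the arrays of the same serum, and after median centring. Of all genes 1.32%, 1.96%, 1.86% and 1.2% passed in these 4 fits. With GW1516 replicate 1 or 2 left out, 4 and 5 members passed, where 2.67% and 2.94% of all genes did. Neither retinoid differed from GW1516 for any member in limma (lowest adjusted p 0.355 for retinoic acid and 0.297 for TTNPB, both for Psmb3), where 0.352% and 0.0676% of all genes passed. There were 5 members at an unadjusted p below 0.05 in the first of these comparisons and 6 in the second, where 9.3% and 10.5% of all genes were.

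The upstream bases of the beta subunits Psmb3 and Psmb5 are shown in the same way, since these were the core genes on which the GW1516 comparison turned.
Psmb3, chr11:97703184-97703433, plus strand: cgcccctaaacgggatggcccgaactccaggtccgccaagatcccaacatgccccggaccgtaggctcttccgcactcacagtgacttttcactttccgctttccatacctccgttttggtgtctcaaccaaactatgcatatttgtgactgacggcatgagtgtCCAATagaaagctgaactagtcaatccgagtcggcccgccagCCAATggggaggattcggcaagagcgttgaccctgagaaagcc
Psmb5, chr14:54617996-54618245, minus strand: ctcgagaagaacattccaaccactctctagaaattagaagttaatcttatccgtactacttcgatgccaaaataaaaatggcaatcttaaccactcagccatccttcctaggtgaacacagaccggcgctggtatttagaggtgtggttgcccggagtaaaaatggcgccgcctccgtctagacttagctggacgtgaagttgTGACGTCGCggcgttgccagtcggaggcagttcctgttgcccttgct
Psmb3 holds CCAAT 85 and 43 bases before its start. Psmb5 holds TGACNNNGC 47 bases before its start.

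**Figure D2:**
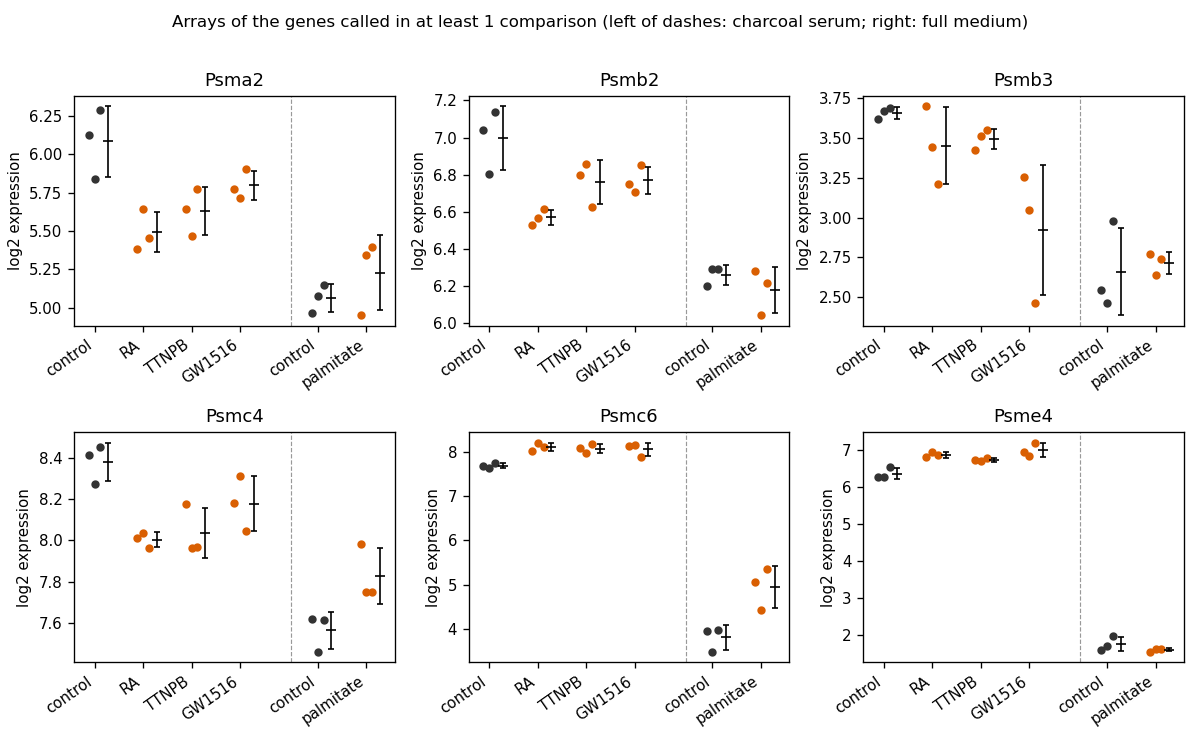
Log2 expression on every array (points) with the group mean and SD beside them, for the 6 members that passed the test in at least 1 comparison, with charcoal-treated serum left of the dashed line and untreated serum right of it. The axes differ between genes and do not start at 0. Psme4 lies above its controls in the 3 ligand groups, and Psmc6 lies above its controls with palmitate.

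Palmitate raised Psmc6 more than any other treatment moved a member. This was 1 rise and no fall among 48 members (2.08%), where 0.681% of all genes passed in limma, 0.144% as rises and 0.537% as falls. With dim genes left out, 1 of 45 members passed, where 1.85% of 12346 genes did. At an unadjusted p below 0.05, 5 members rose (10.4%, against 2.26% of all genes) and 2 fell (4.17%, against 4.74%). The median member change was 0.003, against -0.001 for all genes. All treated arrays lay above all controls for 10 members and below them for 6, where 6.46% and 8.76% of all genes did so. Of all calls 21.2% were rises as deposited, 35% after quantile normalization and 17.6% after median centring.

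Psmc6, an ATPase of the base (chr14:45329823-45349074), measured 3.96, 3.48 and 3.97 in the full-medium controls and 5.05, 4.43 and 5.35 with palmitate. The groups did not overlap, and the rise was 2.20-fold (change 1.14 ± 0.17 SE, adjusted p 0.00351, limma). It passed in all 7 fits that left out an array, with adjusted p-values from 0.000455 to 0.025. In a fit of the 6 full-medium arrays alone the adjusted p was 0.184, and 1 of all 22180 genes passed there. Its upstream bases are shown as those of the member with the largest change.
Psmc6, chr14:45329574-45329823, plus strand: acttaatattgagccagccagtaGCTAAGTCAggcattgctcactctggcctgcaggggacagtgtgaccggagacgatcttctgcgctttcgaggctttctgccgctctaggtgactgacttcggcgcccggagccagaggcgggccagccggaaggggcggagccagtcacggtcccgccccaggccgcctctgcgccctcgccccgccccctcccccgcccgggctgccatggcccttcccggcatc
The transcript start used for this run lies 1 base inside the gene's annotated span. Psmc6 holds TGACNNNGC on the opposite strand 227 bases before that start.

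The other ATPases had smaller differences. Psmc4 measured 7.62, 7.46 and 7.61 in the full-medium controls and 7.98, 7.75 and 7.75 with palmitate. All treated arrays were higher, with a change of 0.26 that did not pass (adjusted p 0.375). Psmc2 lay at -0.18 (adjusted p 0.923) and Psmc1 at -0.13.

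Core subunits were mostly a little above the control with palmitate. Of 13, 11 lay above 0 and 2 below (15.4%, against 50.6% of all genes), with a median of 0.15, and none passed in limma. The unadjusted p was below 0.05 for 3 of them, all higher (23.1%, where 2.26% of all genes rose). For 6 every treated array was above every control array, as for 6.46% of all genes. Psmb6, the caspase-like subunit, had the largest difference at 0.25 (adjusted p 0.703), and Psmb5 lay at 0.13. Psmb2 lay at -0.08. The 95% intervals of all 13 lay within a 1.5-fold change either way.

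Lid subunits did not share this: 3 of 8 lay above 0 and 5 below (62.5%, against 50.6% of all genes), with a median of -0.03. Psmd11 measured 6.30, 6.33 and 6.18 in the controls and 5.90, 5.96 and 5.63 with palmitate, a change of -0.44 (adjusted p 0.379). Psmd8 measured 7.27, 7.32 and 7.30 in the controls and 7.58, 7.52 and 7.72 with palmitate, a change of 0.31 (adjusted p 0.89). These 2 lid subunits lay apart from their controls in opposite directions without passing. Psmd14 lay at -0.04.

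The count for palmitate rested on the estimate of spread. Without GW1516 replicate 3, which enters only that estimate here, 5 members passed. Psmb4 (0.23, adjusted p 0.0439), Psmc6 and Psmd8 (0.31, 0.0135) rose, and Psmd11 (-0.44, 0.0217) and Psmd1 (-0.28, 0.0439) fell. In that fit 1.97% of all genes passed.

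**Figure D3:**
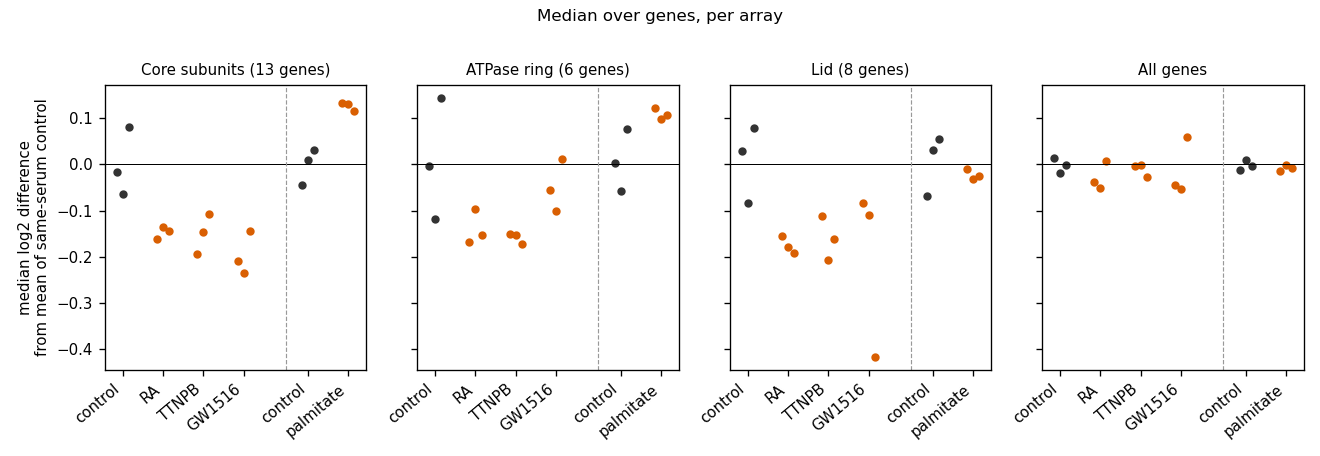
Median log2 difference from the mean of the controls in the same serum, per array (points), over the 13 core subunits, the 6 ATPases, the 8 lid subunits and all genes, with charcoal-treated serum left of the dashed line. The control arrays enter the mean they are set against. Core medians lie between -0.24 and -0.11 on the 9 ligand arrays and between 0.12 and 0.13 on the 3 palmitate arrays, and the lid median of GW1516 replicate 3 stands apart at -0.42.

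Seen by array, the core subunits lay, by their median, below the mean of the same 3 controls on all 9 ligand arrays. Their median difference ranged from -0.16 to -0.14 with retinoic acid, from -0.20 to -0.11 with TTNPB and from -0.24 to -0.14 with GW1516, while the 3 control arrays ranged from -0.06 to 0.08. With palmitate it ranged from 0.12 to 0.13, against -0.04 to 0.03 in the full-medium controls. The ATPase medians of the charcoal-serum controls ranged from -0.12 to 0.14. With TTNPB they ranged from -0.17 to -0.15, below all controls, and with retinoic acid and GW1516 they overlapped the controls. The lid medians were below those of the controls with each ligand and lay inside the control range with palmitate. With GW1516 the margin was very small, with replicate 1 at -0.0843 and the lowest control array at -0.0831. Over all genes the ligand arrays ranged from -0.05 to 0.06.

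The retinoic acid and palmitate comparisons have separate controls, so their difference could be tested. Serum and dose differ between the palmitate and ligand comparisons as well as the treatment, and the serum sets may have been scaled apart. The parts of treatment, serum, dose and scaling cannot be told apart. Psmc4 and Psma2 differed, being lower with retinoic acid and not with palmitate. The palmitate change exceeded the retinoic acid change by 0.64 ± 0.13 (SE) for Psmc4 (adjusted p 0.0125, limma) and by 0.75 ± 0.20 (SE) for Psma2 (adjusted p 0.0497), the 2 members that passed (4.17%, against 0.491% of all genes in that direction). For Psmc4 the difference passed in all 12 fits that left out an array, while for Psma2 it passed in 2 of 12. Psmc4 also differed between palmitate and TTNPB, by 0.61 ± 0.13 (SE, adjusted p 0.0441), the 1 member that passed (0.167% of all genes did in that direction). Psme4 differed between palmitate and GW1516, by -0.79 ± 0.18 (SE, adjusted p 0.0325), again the 1 member (1.06% of all genes in that direction). Of 12 fits that left out an array, the first of these differences passed in 1 and the second in 4. Psme4 was at 1.74 in the full-medium controls, against 6.37 in the charcoal-serum controls. For Psmc6 the palmitate change exceeded the retinoic acid change by 0.71, which did not pass (adjusted p 0.171), so its rise is not shown to be particular to palmitate.

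**Figure D4:**
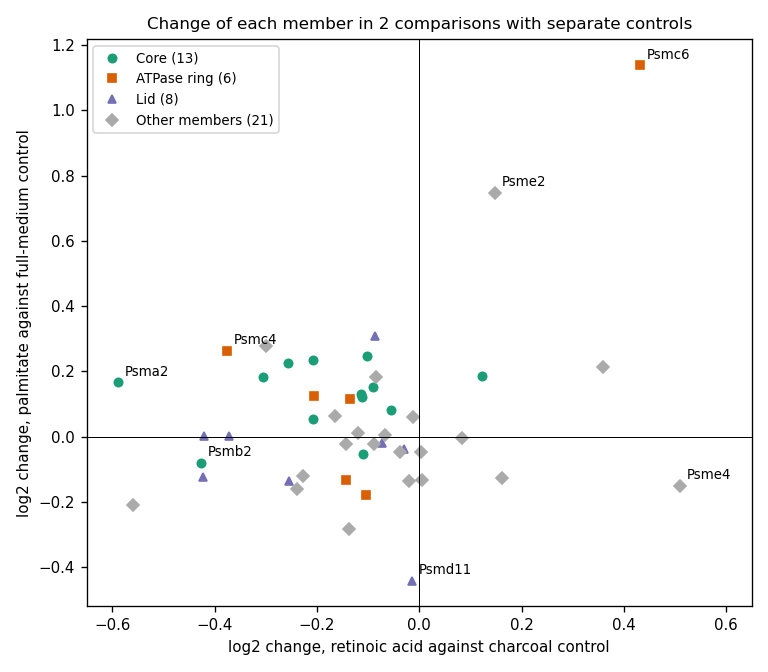
Log2 change with palmitate (vertical axis) against log2 change with retinoic acid (horizontal axis), 1 point for each of the 48 members, with symbols for core, ATPase, lid and other members. The 2 comparisons share no array. Psma2 and Psmc4 lie in the upper left, Psme4 lies to the lower right, and Psmc6 lies above 0 on both axes.

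Other genes of the pathway were taken from a list of 36 shuttles, unfoldases, ubiquitin genes, proteasome-bound enzymes and regulators, of which 27 were measured. With retinoic acid 5 of the 27 rose and none fell in limma (18.5%, where 3.82% of all genes rose), and 3 fell at an unadjusted p below 0.05 (11.1%, against 7.03%). In the fit with dim genes left out, 8.55% of 12346 genes rose. Uba6, a ubiquitin-activating enzyme, measured 3.95, 3.74 and 4.25 in the controls and 4.69, 4.74 and 4.46 with retinoic acid, a change of 0.65 (adjusted p 0.0148). Zfand5, a proteasome-binding zinc finger protein, rose by 0.93 (0.0149), Fbxo7, an F-box protein that binds the proteasome modulator encoded by Psmf1, by 0.89 (0.0264), and Ngly1, the glycanase that processes the proteasome gene activator Nfe2l1, by 0.65 (0.0217). Of 7 fits that each left out an array, Zfand5 passed in 4, Uba6 in 3, and Fbxo7 and Ngly1 in 2 each. Leaving out retinoic acid replicate 1 or control replicate 2 ended the call for all 4, with adjusted p-values from 0.0546 to 0.155. The remaining gene of the 5, named after its values were seen, was the proteasome adaptor Ecpas (0.52, adjusted p 0.0137). Nfe2l1 itself did not pass (0.16, adjusted p 0.453).

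With GW1516, 2 of the 27 rose (7.41%, against 1.89% of all genes and 5.02% with dim genes left out), Uba6 by 0.77 (adjusted p 0.0101) and Ecpas by 0.48 (0.0373). Ecpas did not pass without GW1516 replicate 3, control replicate 1 or control replicate 2 (0.0967 to 0.151), nor Uba6 without control replicate 2 (0.0621). No listed gene fell in limma, with 5 falls at an unadjusted p below 0.05 (18.5%, against 7.34%). With TTNPB none of the 27 passed in limma, with 5 rises (18.5%, against 5.57%) and 3 falls (11.1%, against 5.65%) at an unadjusted p below 0.05. With palmitate 1 fell (3.7%, against 0.537% of all genes and 1.46% with dim genes left out). Ube3c, a ubiquitin ligase that acts at the proteasome, measured 5.72, 5.64 and 5.60 in the controls and 4.79, 4.45 and 4.36 with palmitate. The groups did not overlap, and the change was -1.12 ± 0.19 (SE, adjusted p 0.00789, limma). It passed in all 7 fits that left out an array, but not with the 6 full-medium arrays alone (adjusted p 0.0726) or after median centring of the arrays.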

How the data were processed

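The authors deposited log2 values for 41345 probe sets on each of 18 arrays, which were used as they stand. Partek is named in the submitters' processing notes. Its version and the methods of background correction, normalization and summary are not given in the sources used here. Of the probe sets 23521 had 1 gene symbol, 1814 several and 16010 none, and 23328 matched GRCm38.p6 RefSeq through their gene identifier. Where a gene had several probe sets (1082 genes), the one with the highest mean over 18 arrays was kept, which gave 22180 genes.

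All genes were fitted with limma 3.58.1 in R 4.3.3 (group means of 6 groups, 12 residual degrees of freedom, empirical Bayes with an intensity trend). Tests were two-sided, with Benjamini-Hochberg adjustment over all genes of a comparison and a threshold of 0.05. The script was tested on simulated data. The number of arrays limits the precision. At most 2.55% of values were equal between arrays of a group (tolerance 1e-06), so no array was a copy of another in its group.

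Genes named were those past the threshold, the largest rise and fall among core, ATPase and lid subunits in each comparison, up to 4 other pathway genes a comparison, and Psmb5, Psmc1 and Psmd14. Members and lists were chosen with earlier results of these data known. Alternatives covered the arrays fitted, replicate block, variance trend, scaling, dim genes, probe sets, threshold and each array left out.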

Additional observations from a re-analysis of the deposited data

Results flagged for a closer look

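The effects of palmitate and of a charcoal-serum ligand on the same gene differed for 3 members in 4 tests of the difference itself (limma, adjusted over all genes). For Psmc4 the change with palmitate minus that with retinoic acid was 0.638 (adjusted p 0.0125), and it passed in 18 of 19 alternative fits. For Psmc4 the change with palmitate minus that with TTNPB was 0.606 (adjusted p 0.0441, and 0.0467 to 0.131 when single arrays were left out). For Psma2 the change with palmitate minus that with retinoic acid was 0.754 (adjusted p 0.0497, and 0.0208 to 0.136 when single arrays were left out). For Psme4 the change with palmitate minus that with GW1516 was -0.793 (adjusted p 0.0325, and 0.0248 to 0.0928 when single arrays were left out). These differences kept their sign in all 19 alternative fits each. The serum and the dose differ between the comparisons as well as the treatment, and the serum sets may have been scaled apart. The parts of treatment, serum, dose and scaling cannot be told apart here.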

How the results depend on the processing

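With only the 6 arrays of a comparison, 8 members passed for retinoic acid, 4 for TTNPB, 0 for GW1516 and 0 for palmitate. Of all genes 8.35%, 2.25%, 0.0135% and 0.00451% passed in these fits. With only the arrays of the same serum 1 member passed for GW1516 and 0 for palmitate, where 1.86% and 0.00451% of all genes did. Quantile normalization gave 9, 2 and 5 members for the ligands in the same order (6.13%, 2.46% and 3.49% of all genes), with member medians of -0.178 for retinoic acid and -0.149 for GW1516. Median centring gave 1 for retinoic acid and 1 for GW1516 (3.38% and 1.2% of all genes), with medians of -0.041 and -0.0825. Leaving dim genes out gave 1 for TTNPB (3.68% of the 12346 genes kept), and averaging the probe sets of a gene gave a TTNPB median of -0.092. At an adjusted p below 0.01, 0 passed for retinoic acid and 1 for GW1516. The share of all genes at that threshold is not given here, so these counts stand without that comparison. With single arrays left out the counts ranged from 0 to 8 for retinoic acid, 0 to 3 for TTNPB, 0 to 5 for GW1516 and 1 to 5 for palmitate, the upper ends for all but GW1516 coming without GW1516 replicate 3 (chosen after the data were seen). In the same order, the shares of all genes that passed ranged from 2.63% to 9.08%, 0.505% to 3.76%, 0.893% to 3.21% and 0.28% to 1.97%. The medians then ranged from -0.136 to -0.0825 for retinoic acid, -0.12 to -0.0763 for TTNPB, -0.153 to -0.0761 for GW1516 and -0.0285 to 0.0604 for palmitate. The cause of these shifts was not tested. No named result passed with the opposite sign.

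With the replicate number as a replicate block, 1 member passed for GW1516 (Psme4, with Psmb3 at an adjusted p of 0.0546), where 2.25% of all genes did. The counts of the other comparisons kept within 1.5 times. Same-numbered control and treated arrays deviated together in only 3 of 12 pairs (correlation over 0.1, range -0.231 to 0.212), so the numbers were not taken to pair the arrays.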

Other observations

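Within the proteasome genes, Psme4 and Psmc6 stood out in the level between the sera, given as a description because the serum sets may have been scaled apart. Psme4 was at 6.37 in the charcoal-serum controls and 1.74 in the full-medium controls, and Psmc6 at 7.69 and 3.80. These gaps of 4.63 and 3.89 compare with a median gap of 0.924 over the 45 members above background in both controls and of 1.14 over 9709 genes. Gaps over 3 were seen for 4.44% of those members and 10.2% of those genes. Psme4 lay nearer to the background of 0.593 in the palmitate comparison than in the ligand comparisons.

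The shuttle and unfoldase genes of the pathway list were all on the lower side with palmitate: 12 of 12 measured genes lay below 0, against 50.6% of all genes and 58% with dim genes left out, with a median of -0.17 and a lowest change of -0.28. None passed in limma, and 2 fell at an unadjusted p below 0.05 (16.7%, against 4.74% of all genes). This group was singled out after its values were seen.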
